A study of Bos taurus with 20 samples.

Results

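A4GALT and CHPF are Golgi enzymes that build sugar chains, and both carry a name on the 18KO array, a spotted cDNA array whose clones come from a library depleted of transcripts shared with pregnant endometrium, and so enriched for those of control heifers. All clones of that array whose only gene symbol is A4GALT or CHPF were taken: 3 clones of A4GALT (18KO-12-C11, 18KO-13-F04 and 18KO-18-G09) and 1 clone of CHPF (18KO-13-H12), 4 of 1536 clones and 2 of 72 named genes. The 18KB array, which carries the opposite library, has 0 clones with either name. Per the series design text, the clones that were sequenced, and so could be named, were chiefly those that differed between these same animals, so both genes were chosen by the contrast described here. Its values are therefore a description. Where a gene is said to pass a threshold, this only places it among the other features of the array, and such a call is no independent evidence of a difference.

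The samples are intercaruncular endometrium of the caudal section of the ipsilateral uterine horn, taken from Simmental heifers on day 18 after cycle synchronisation with 500 µg of the prostaglandin analogue cloprostenol. The 4 pregnant heifers (animals 316, 426, 447 and 448) were inseminated with frozen sperm of 1 bull, were 17 to 20 months old and had an intact conceptus, which was removed. The 6 control heifers (330, 404, 427, 434, 440 and 449) received the sperm-free supernatant, were 18 to 22 months old and had no conceptus. Each animal is 1 sample, and its RNA, labelled with phosphorus-33, was hybridised to both arrays; the 18KO array of pregnant 316 was hybridised again at a later time, because its spots had blurred, and its values were placed through the ratios to a pair of samples repeated with it. The 10 columns of the 18KO array had median spot intensities from 1.66 in pregnant 448 to 3.89 in control 449. Precision is limited by the number of arrays.

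A4GALT, an alpha-galactosyltransferase, adds a galactose to the glycolipid lactosylceramide and so makes globotriaosylceramide, the first of the globo-series glycosphingolipids of the cell surface and the receptor of Shiga toxin. CHPF, the chondroitin polymerizing factor, works with the chondroitin synthases to lengthen chondroitin, a chain of alternating glucuronic acid and N-acetylgalactosamine that, once sulphated, is carried by proteoglycans of the cell surface and the matrix. The stroma of the endometrium is rich in such proteoglycans, and globo-series lipids are found on many epithelial and endothelial cells.

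A4GALT was lower in the endometrium of pregnant animals. As the geometric mean of its 3 clones, its intensity was 1.74 in pregnant 316, 2.03 in pregnant 426, 1.78 in pregnant 447 and 1.61 in pregnant 448. In the controls it was 3.03 in animal 427, 5.59 in 440, 5.87 in 330, 6.11 in 434, 7.72 in 404 and 10.5 in 449. All 4 pregnant animals thus lay below all 6 controls, with 0.58 on the log2 scale between pregnant 426 and control 427. The mean log2 intensity was 0.84 ± 0.14 (SD, n = 4) with pregnancy and 2.60 ± 0.59 (SD, n = 6) without it, which differ by -1.76 ± 0.37 (SE from limma), or 3.39-fold lower. Among the pregnant animals the levels spanned 1.26-fold, against 3.45-fold among the controls, and with column medians set equal 1.31-fold against 1.91-fold.

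The 3 clones of A4GALT showed the same direction and different sizes. In clone 18KO-12-C11 the intensity was 0.82 in pregnant 316, 1.43 in 426, 0.90 in 447 and 1.55 in 448, and it ran from 2.41 in control 427 through a median of 4.51 to 9.47 in control 449. This clone was 4.10-fold lower in pregnant animals (-2.04 ± 0.36 SE), and its groups did not overlap. In clone 18KO-13-F04 the intensity was 2.15 in pregnant 316, 1.73 in 426, 2.18 in 447 and 1.08 in 448, and it ran from 3.41 in control 427 through a median of 7.20 to 10.6 in control 449. This clone was 3.84-fold lower (-1.94 ± 0.35 SE), again without overlap. In clone 18KO-18-G09 the intensity was 3.01 in pregnant 316, 3.39 in 426, 2.87 in 447 and 2.48 in 448, and it ran from 3.39 in control 427 through a median of 7.68 to 11.3 in control 449. Here pregnant 426 and control 427 had the same value, so the groups met, and the difference was 2.47-fold (-1.31 ± 0.32 SE). Clone 18KO-18-G09 is the brightest of the 3, and taken alone it puts the difference of A4GALT at -1.31.

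The narrow spread of A4GALT among pregnant animals appeared in the mean of its clones and in clone 18KO-18-G09, and less so in the other clones. Pregnant 448 had the highest value of the pregnant animals in clone 18KO-12-C11 and the lowest in clone 18KO-13-F04. Pregnant 316 had the lowest in the first of these. The SD of the log2 values among pregnant animals was 0.46 in clone 18KO-12-C11, 0.47 in 18KO-13-F04 and 0.19 in 18KO-18-G09, against 0.14 for their mean. In the controls it was 0.67, 0.63 and 0.62 in these clones and 0.59 for their mean. With column medians set equal, clone 18KO-12-C11 had a larger SD among pregnant animals (0.65) than among controls (0.40). Clones 18KO-13-F04 (0.27 against 0.41) and 18KO-18-G09 (0.14 against 0.43) had a smaller one. Among the controls as deposited, animal 427 was the lowest control and animal 449, whose column had the highest median, the highest in each of the 3 clones. With column medians set equal, 427 stayed the lowest in each. The highest was then 404 in clone 18KO-13-F04 and 330 in 18KO-18-G09. The clones share 1 gene symbol and were measured in the same RNA, so they are not replicates of the groups.

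**Figure D1:**
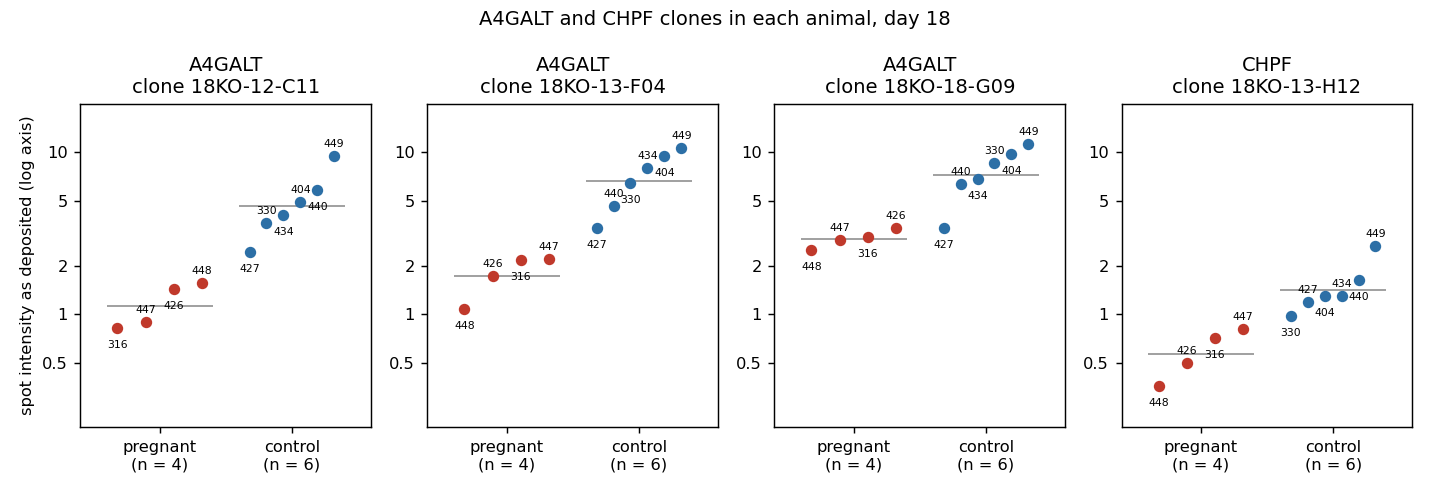
Spot intensity as deposited (log axis) of the 3 A4GALT clones and the CHPF clone in 4 pregnant (red) and 6 control (blue) heifers; points carry the animal's number and lines are geometric means. Pregnant animals lie below all controls in both first A4GALT clones and in CHPF, while in clone 18KO-18-G09 pregnant 426 and control 427 share the value 3.39.

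CHPF was also lower in the endometrium of pregnant animals. Its clone had an intensity of 0.71 in pregnant 316, 0.50 in pregnant 426, 0.81 in pregnant 447 and 0.36 in pregnant 448. In the controls it was 0.97 in animal 330, 1.19 in 427, 1.29 in both 404 and 434, 1.62 in 440 and 2.63 in 449. The groups did not overlap, with 0.26 on the log2 scale between pregnant 447 and control 330. The mean log2 intensity was -0.82 ± 0.53 (SD, n = 4) with pregnancy and 0.51 ± 0.50 (SD, n = 6) without it, which differ by -1.32 ± 0.38 (SE from limma over the named genes), or 2.50-fold lower. The level in pregnant 448 lay just under the 10th percentile of all values of the array (0.37). Raising lower values to that percentile changes CHPF in pregnant 448 alone, so the resulting -1.31 says little about its low signal. Adding the 5th percentile of the positive values (0.23) to every value gave -1.04 ± 0.34 (SE). The mean level of the CHPF clone lay above that of 28.1% of all clones. CHPF rests on 1 clone, so no second clone checks its size.

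Both differences were set against all features of the array by a fixed rule, an adjusted p under 0.01 in limma and a fold of at least 2. Fitted over the 72 named genes, A4GALT and CHPF both passed as lower, as did 59.7% of these genes. Fitted over all clones, 2 of the 3 A4GALT clones passed, 18KO-18-G09 and the CHPF clone did not, and 6.32% of all clones passed as lower. Every pregnant value lay below every control value in both genes and in 62.5% of the named genes. The same held for 3 of the 4 clones and for 12.2% of all clones. Nothing is read from these counts, because the names were given for this contrast. By size of the difference A4GALT stood at rank 16 of 72 from the most negative, between the basement membrane collagen COL4A2 (-1.79 ± 0.36) and the fibrillar collagen COL1A2 (-1.73 ± 0.48). CHPF stood at rank 38, between SDC2, a heparan sulfate proteoglycan of the cell surface (-1.34 ± 0.43), and THBS2, a secreted matrix glycoprotein (-1.32 ± 0.35), and near the median of all named genes (-1.34).

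**Figure D2:**
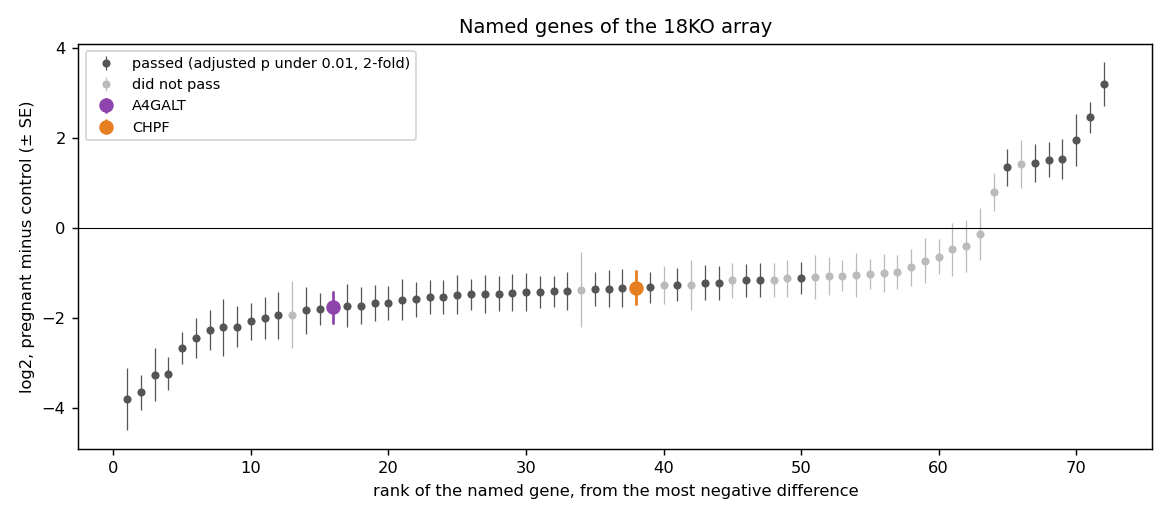
Difference in log2 intensity, pregnant minus control, with its limma SE for the 72 named genes of the 18KO array, ordered from the most negative; dark points passed an adjusted p under 0.01 and a 2-fold change. A4GALT (purple, rank 16, -1.76) and CHPF (orange, rank 38, -1.32) lie in the long run of lower genes.

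The sizes depended on how the columns were scaled, and CHPF lost its call under equal column medians, though not under the other scalings. Quantile normalization gave -1.46 ± 0.23 for A4GALT and -1.13 ± 0.25 for CHPF. With 1 factor per animal from both arrays the differences were -2.01 ± 0.32 and -1.57 ± 0.32, and both genes passed under either scaling. Setting the column medians equal moved the median difference of all clones from -0.06 to 0.27. It gave -1.43 ± 0.23 for A4GALT, which still passed, and -0.99 ± 0.24 for CHPF, which then fell short of a 2-fold change. The groups of both genes still did not overlap on that scale, and all 6 controls also lay above all 4 pregnant animals in clone 18KO-18-G09. Nothing is read from this, because the share of all features without overlap was not counted on that scale. As deposited, every pregnant value lay below every control value in 62.5% of the named genes and 12.2% of all clones. Relative to the median of all clones, which does not depend on that scaling, A4GALT stood at a log2 difference of -1.70 and CHPF at -1.26. CHPF did not pass when it was adjusted together with the unnamed clones. It also did not pass without pregnant 316 (-1.43), pregnant 426 (-1.26), pregnant 448 (-1.10) or control 440 (-1.29). A4GALT passed under each of these settings, and without the repeated hybridisation of pregnant 316 its difference was -1.75. With age in months as a covariate the differences were -2.03 for A4GALT and -1.43 for CHPF.

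**Figure D3:**
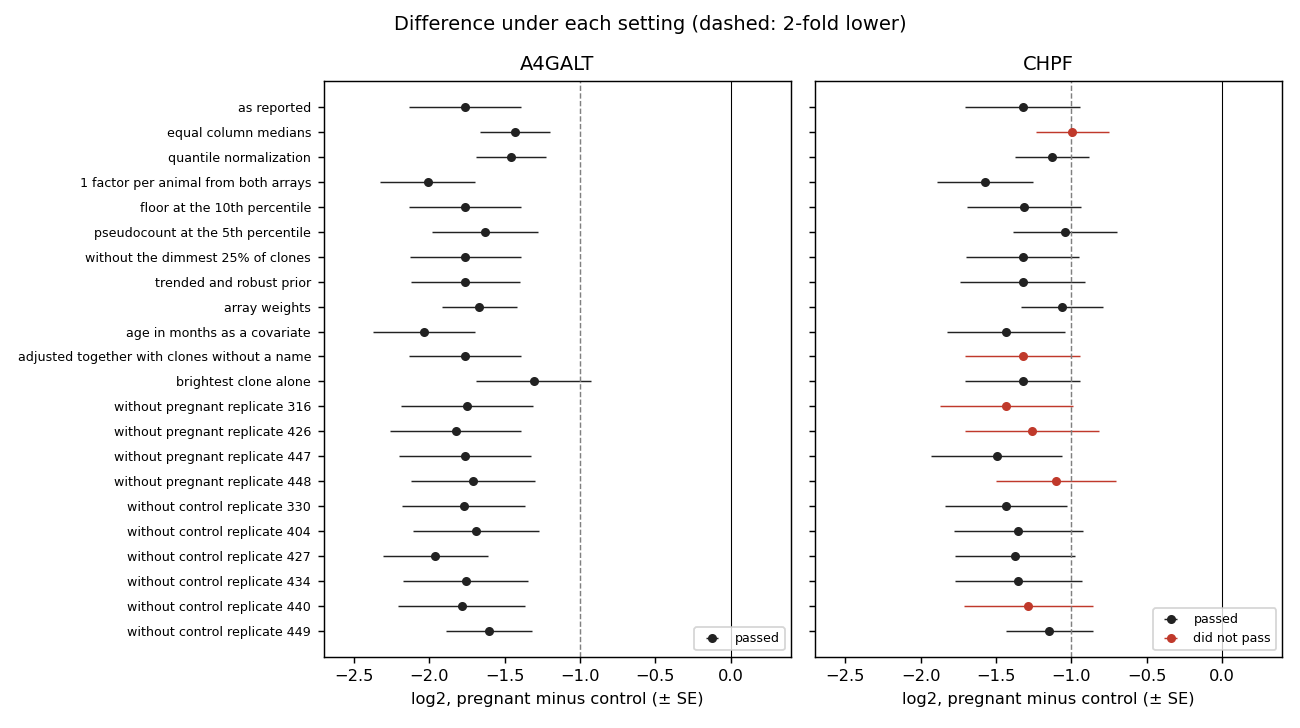
Difference in log2 intensity, pregnant minus control, with its limma SE for A4GALT (left) and CHPF (right) under each setting; the dashed line is a 2-fold decrease and red points did not pass. A4GALT passed in each of the 22 fits shown, from -2.03 to -1.31, and CHPF failed in 6 of them.

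Whether A4GALT fell further than CHPF was described by the ratio of both genes within each animal, which no scaling factor of a column can move. The mean of this log2 ratio differed by -0.44 ± 0.32 (SE), 4 pregnant minus 6 control animals, a difference smaller than the SD within either group (0.51 among pregnant animals, 0.48 among controls). Pregnant 316 and 447 lay below all controls in this ratio, and pregnant 426 and 448 lay inside the control range. With the brightest A4GALT clone alone the sign turned, to 0.016.

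Across the 10 animals the log2 levels of A4GALT and CHPF correlated at r = 0.86, which repeats the contrast by which both were chosen and the scale of the columns they share. Levels of both were lowest in pregnant 448, whose column had the lowest median, and highest in control 449, whose column had the highest. As deviations from their group means, A4GALT followed the column median at r = 0.823 and CHPF at r = 0.83. The deviations of both genes correlated at r = 0.495 as deposited and at r = -0.361 once column medians were set equal. On that scale the pregnant animals with the lower CHPF values, 426 and 448, were those with the higher A4GALT values. These are descriptions over 10 arrays.

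**Figure D4:**
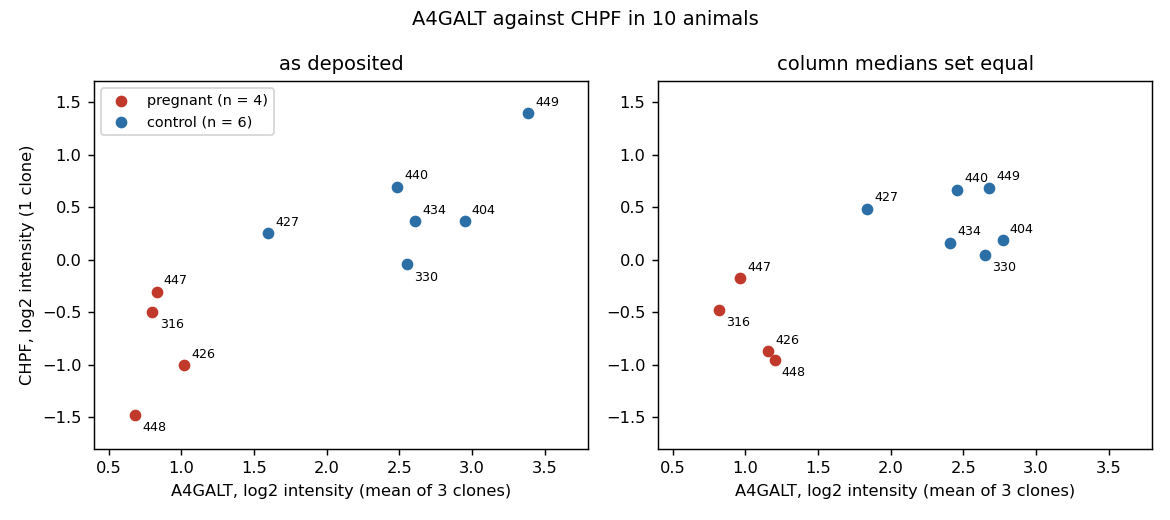
CHPF (1 clone) against A4GALT (mean of 3 clones), log2 intensity, in 4 pregnant (red) and 6 control (blue) heifers, as deposited on the left and with equal column medians on the right. The groups stay apart on both scales. As deposited 62.5% of the named genes did so as lower, and with equal medians this share was not counted. Within groups the relation of both genes differs between the scales (r of deviations 0.495 and -0.361).

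The clones of A4GALT were compared in the same way. Deviations from group means correlated at r = 0.841 between 18KO-13-F04 and 18KO-18-G09, at 0.65 between 18KO-12-C11 and 18KO-18-G09 and at 0.321 between 18KO-12-C11 and 18KO-13-F04. With equal column medians these values were 0.617, 0.453 and -0.222. Clone 18KO-12-C11 thus followed the other clones of its gene least closely within the groups, although it showed the largest difference between them.

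Among the other 71 named genes, the levels most like those of A4GALT over the 10 animals were those of ACTA2, the smooth muscle actin (r = 0.963, difference -1.41 ± 0.36), TUBB6, a beta tubulin (0.961, -1.54 ± 0.38), and SEC61A1, which forms the channel for proteins entering the endoplasmic reticulum (0.953, -1.02 ± 0.34, not passed). The median over the 71 genes was 0.807. As deviations from group means with equal column medians, the nearest were the growth regulator BTG2 (0.742), RNF144B, a ubiquitin ligase (0.731), and TUBB6 (0.72), against a median of 0.025. Neither BTG2 (-0.41 ± 0.58) nor RNF144B (-1.12 ± 0.42) passed as different between the groups. CHPF ranked 24 by levels and 52 by these deviations among the 71 genes set against A4GALT.

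CHPF had closer neighbours. Its levels were most like those of FLNA, an actin cross-linking protein (r = 0.984, difference -1.67 ± 0.38), TUBA1A, an alpha tubulin (0.973, -1.36 ± 0.38), and MAGED1 (0.97, -1.44 ± 0.41), against a median of 0.86 over the 71 genes. As deviations from group means with equal column medians, FLNA stayed nearest (0.903), followed by the fibrillar collagen COL3A1 (0.838, difference -1.73 ± 0.41) and PPP4R3A, a regulatory subunit of a protein phosphatase (0.82, -1.60 ± 0.45), against a median of 0.194. Each of these 5 genes passed as lower in pregnant animals, as did 59.7% of all named genes of the array, and genes picked for likeness to a lower gene share its contrast.

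Few other genes of the pathways around both enzymes carry a name on these arrays. Of 27 genes of glycosphingolipid synthesis and breakdown A4GALT was the only one named on either array, and of 27 genes of chondroitin and dermatan sulfate synthesis CHPF was the only one. Of 28 genes of other glycosylation in the Golgi and the endoplasmic reticulum 0 were named. Of 31 genes in a list of proteoglycan core proteins and associated matrix proteins, 3 were named on the 18KO array, where 2 passed as lower and 0 as higher, with a median of -1.34, equal at this precision to that of all named genes, of which 59.7% passed as lower. SDC2 had an intensity of 0.41 to 0.79 in pregnant animals and 0.79 to 3.65 in controls. TNC, a matrix glycoprotein that binds chondroitin sulfate proteoglycans, had 0.37 to 0.90 against 1.65 to 16.0 (-3.26 ± 0.59). FBLN1, a fibulin of the matrix, had a difference of -1.06 ± 0.42 and did not pass. Of the same list 2 were named on the 18KB array, and both passed as higher, as did 80.2% of the 86 named genes of that array: AGRN, a heparan sulfate proteoglycan of basement membranes (2.21 ± 0.31), and CD74, which escorts class II molecules and of which a form carries chondroitin sulfate (1.28 ± 0.24).

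Markers of the cell types that the tissue could hold are given with the share of all named genes that passed, 59.7% as lower on the 18KO array and 80.2% as higher on the 18KB array. Of 12 stroma markers 6 were named on the 18KO array, 4 lower (COL1A1, COL1A2, COL3A1 and COL6A3), 1 higher (NR2F2) and FBLN1 not passed, and their summed intensity was 69.5 to 275 in pregnant animals and 328 to 1086 in controls. The bright markers carry this sum, such as COL1A1 (28.8 to 116 against 162 to 555). NR2F2, at 1.09 to 2.88 against 0.47 to 1.26, adds little to it. Of 6 smooth muscle markers 2 were named, ACTA2 and MYLK, both lower, with sums of 4.81 to 9.33 and 14.7 to 33.3. Of 9 markers of epithelium and glands 2 were named: CLDN4 passed as higher and SERPINA14 did not pass, with sums of 27.4 to 35.4 and 11.1 to 97.4. None of these markers was at or below the floor of 0.01 in any animal. Markers of endothelium and leukocytes carry no name here. Of the stroma markers COL1A1, COL1A2 and COL3A1 were also named on the 18KB array. All 3 passed as lower there, where 80.2% of named genes passed as higher. Their summed intensity was 107 to 436 in pregnant animals and 622 to 1415 in controls. Of 12 trophoblast markers 3 were named, on the 18KB array, all 3 passed as higher as most named genes of that array did, and their sum was 1.44 to 41.7 in pregnant animals and 0.955 to 1.79 in controls. The part of these markers in the differences of A4GALT and CHPF was not tested, and in bulk tissue fewer cells of a type and less RNA per cell cannot be told apart.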

How the data were processed

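The members, lists and rules were chosen with earlier results of these data known. Spot intensities on a linear scale were used as the authors deposited them; background subtraction and column scaling are not given in the sources used here. Values of the 18KO array were raised to a floor of 0.01 (103 values lay at or below it, 0 of them in A4GALT or CHPF clones) and taken to log2. Besides the mapped samples the tables held 0 columns. Names came through the platform's gene table, which lists 141 clones of this array, 137 with 1 symbol; A4GALT (gene identifier 618369) and CHPF (540002) have the same symbols in RefSeq's table of assembly ARS-UCD2.0. Clones of a gene were averaged on the log2 scale. All clones, and separately all named genes, were fitted with lmFit and eBayes of limma 3.58.1 in R 4.3.3, with Benjamini-Hochberg adjustment over the whole table. The fit was tested on simulated data with independent noise in each clone, which held none of the column shifts seen here. Named were both genes, the named genes of the fixed lists, the 3 genes nearest to each by either correlation and its neighbours by size; marker genes were named where they passed or completed a list. Alternatives were other column scalings, low-value treatments, priors, weights, a covariate, adjustments, the brightest clone and leaving out each animal; fits of single clones were added after seeing the data. No coordinates or sequences are given, since none is stated for these clones in the sources used here. Figures were drawn with matplotlib 3.10.9.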

Additional observations from a re-analysis of the deposited data

How the results depend on the processing

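A4GALT kept its direction and its call under the 11 other settings (-2.03 to -1.31) and without each of the 10 animals (-1.96 to -1.60). CHPF kept its direction in all of these and its call under 9 of 11 settings (-1.57 to -0.99) and 6 of 10 omissions (-1.49 to -1.10). CHPF lost the call with equal column medians (-0.99), where the fold fell below 2, and after adjustment together with unnamed clones (-1.32). Some of the 11 settings could not move a direction. The other prior and the joint adjustment act on the test alone, and the only clone of CHPF is also its brightest. Leaving out the dimmest clones removed no clone of either gene, and the floor at the 10th percentile left A4GALT unchanged. The difference of A4GALT minus CHPF was -0.61 to -0.27 without each animal, -0.33 after quantile normalization, -0.59 with a pseudocount, -0.60 with age as a covariate, and 0.016, with the sign reversed, for the brightest clone alone; the cause was not tested. Of 72 named genes 50 passed (43 lower, 7 higher), 13 when adjusted together with unnamed clones, and 20 to 51 without each animal: 23 without pregnant 316, 21 without 426, 20 without 448 and 33 without control 440. Of 1536 clones 115 passed (97 lower, 18 higher), 224 at an adjusted p under 0.05, 69 with a floor at the 10th percentile and 58 to 114 without each animal, with 76, 65 and 58 without pregnant 316, 426 and 448. With equal column medians 175 clones passed (93 lower, 82 higher), with quantile normalization 157 (104 and 53), and with 1 factor per animal from both arrays 247 (233 and 14); the median of all clones moved by 0.33, 0.21 and -0.25. Fits of single clones, added after seeing the data, kept their direction in each of 20 settings, with calls in 20 for 18KO-12-C11, 19 for 18KO-13-F04 (lost without pregnant 448), 5 for 18KO-18-G09 and 3 for CHPF. These 20 include the looser threshold of an adjusted p under 0.05. Only at that threshold do the limma values as deposited of 18KO-18-G09 (adjusted p 0.0134) and CHPF (0.0131) count as calls. No paired analysis was possible because pregnant and control animals are different animals that share no number, and neither gene is named on the 18KB array.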
